A study of Mus musculus with 12 samples.

Results

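The 10 genes described here carry peptides to the cell surface on major histocompatibility complex (MHC) class I molecules, or restrain the T cells that read them, and were followed through 12 RNA-seq libraries of mouse fibroblasts. They were chosen by symbol, and all 10 had a row among the 48795 genes of the deposited tables: B2m, H2-D1, H2-K1, Tap1, Tap2, Tapbp, Psmb8, Psmb9, Nlrc5 and Cd274. A filter on low counts kept 9 of them among 14704 genes tested, and Psmb8 did not pass it.

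NIH3T3 is an immortalised fibroblast line from NIH Swiss mouse embryos. Its wild-type parental form was sampled at passages 6, 7 and 8, and 3 clones with an Aebp1 knockout, F5, G5 and H7, were each sampled at passages 7, 8 and 9, with no treatment named in the labels. The study's title names AEBP1, a secreted collagen-binding protein, as a target in the fibroblasts of tumours alongside therapy directed at PD-1, the T-cell receptor for the Cd274 product PD-L1. Every clone descends from a single isolate and carries both the cloning step and the knockout, so these cannot be told apart, and no clone without the knockout was analysed here. Whether the passages of a line were grown as separate cultures is not stated, and the p-values describe the spread among these libraries alone, which may be technical.

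In antigen presentation, the proteasome cuts cytosolic proteins, and its interferon-inducible subunits, among them Psmb8 and Psmb9, shift which peptides are made. The transporter built of Tap1 and Tap2 pumps peptides into the endoplasmic reticulum, where Tapbp, or tapasin, holds it beside a class I heavy chain (H2-K1 or H2-D1 in mouse) paired with the light chain B2m. Nlrc5 is the class I transactivator: it has no DNA-binding domain of its own and sits on an X and Y box module of class I promoters through RFX, CREB/ATF and NF-Y proteins, while interferon-gamma acts, through Irf1 among other factors, on the same genes and on Cd274. Fibroblasts present on class I at a modest resting level and raise it strongly under interferon.

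Library totals lay between 22088714 and 31329755 counts. The parental library of passage 7 stood apart, with a median correlation of log2 expression with the other libraries of 0.953 against 0.963 to 0.975 for the rest. The targeted gene was read in every library first. Aebp1 (chr11:5861947-5872088) stood at 466 to 613 counts per 1000000 counts (CPM) in the parental line, 175 to 214 in F5, 123 to 138 in G5 and 131 to 158 in H7, so every clone library lay below every parental library and the transcript remained detectable. The fibroblast identity held in the data: 10 of 10 fibroblast markers were kept by the filter, at 92.6 to 11070 CPM. Of 15 immune cell markers, 9 had no count in any library, the T-cell genes Cd3e, Cd3g, Cd8a and Cd4 among them, and none exceeded 4.89 CPM. Genes of some chromosomes lay jointly off 0 against the parental line. In H7 the median log2 difference of 7 of 20 chromosomes lay beyond 0.1 from 0, from -0.22 to 0.45 on chromosome 15, against 1 of 20 in F5 and 1 of 20 in G5.

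The stretches of promoter that join the heavy chains and B2m are shown first, because Nlrc5 and the interferon factors are known to act there. RefSeq promoter windows of build GRCm38.p6 matched 8 of the 10 genes (not Tap2 or Nlrc5), and the 250 bases before each start were searched on both strands for GGGNNTTCC (a kappa B shape), GAANNGAAA (an interferon-response element core), TGACG (the CREB/ATF half-site) and CCAAT (the NF-Y box). The capitals below mark those matches, read on either strand.
H2-K1, chr17:34000349-34000468, minus strand: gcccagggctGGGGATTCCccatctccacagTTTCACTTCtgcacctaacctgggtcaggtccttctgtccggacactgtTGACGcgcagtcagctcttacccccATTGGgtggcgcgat
H2-D1, chr17:35262923-35262952, plus strand: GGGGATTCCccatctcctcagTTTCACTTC
B2m, chr2:122147599-122147648, plus strand: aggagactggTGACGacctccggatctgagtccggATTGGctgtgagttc
All 4 motifs stood together before H2-K1 and H2-D1, in the same order. Only the first pair is printed for H2-D1, since a longer annotated transcript of that gene covers the window. B2m held the CREB/ATF half-site followed by an inverted CCAAT box and neither of the other motifs. Over all 32851 windows of the same length the shares with a match were 4.98% for GGGNNTTCC, 6.31% for GAANNGAAA, 17.8% for TGACG and 33.8% for CCAAT, and 0.0396% held all 4. That last share is 13 windows, and they include 2 of H2-K1, 1 of H2-D1 and 1 each of the class I relatives H2-Q4, H2-Q7 and H2-M2. Tap1 and Psmb9, which share a divergent start, each held a TGACG and a CCAAT match, Tapbp held CCAAT alone, and Psmb8 and Cd274 had no match to the 4 motifs in this window.

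**Figure D1:**
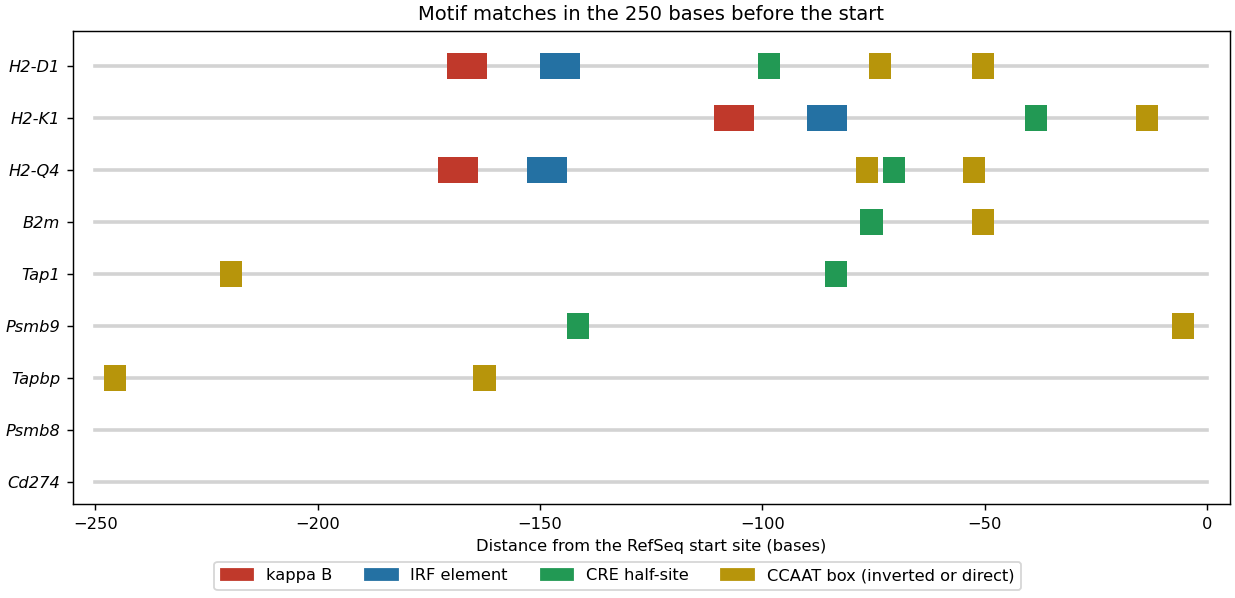
Positions of the 4 motifs in the 250 bases before the RefSeq start of each matched gene and of H2-Q4, with distance from the start in bases on the horizontal axis and 1 coloured block per match. H2-D1, H2-K1 and H2-Q4 carry all 4 motifs, B2m carries 2 of them, and Psmb8 and Cd274 carry none.

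Compared per transcript length (TPM), the light chain was the most abundant of the 10 transcripts, with a mean of 202 TPM over the 12 libraries. H2-D1 followed at 91.3 TPM and Tapbp at 61.4, and their ranges overlapped (76.3 to 106 against 47.5 to 109). Tap2, H2-K1 and Tap1 formed a middle tier at 15.0, 10.0 and 7.16 TPM, with ranges that also overlapped. The 4 remaining transcripts were near the limit of detection: Psmb9 averaged 0.884 TPM, Cd274 0.425, Nlrc5 0.361 and Psmb8 0.0826. On the same scale Psmb5, Psmb6 and Psmb7, the constitutive subunits whose places the inducible ones take, averaged 84.0, 237 and 115 TPM.

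**Figure D2:**
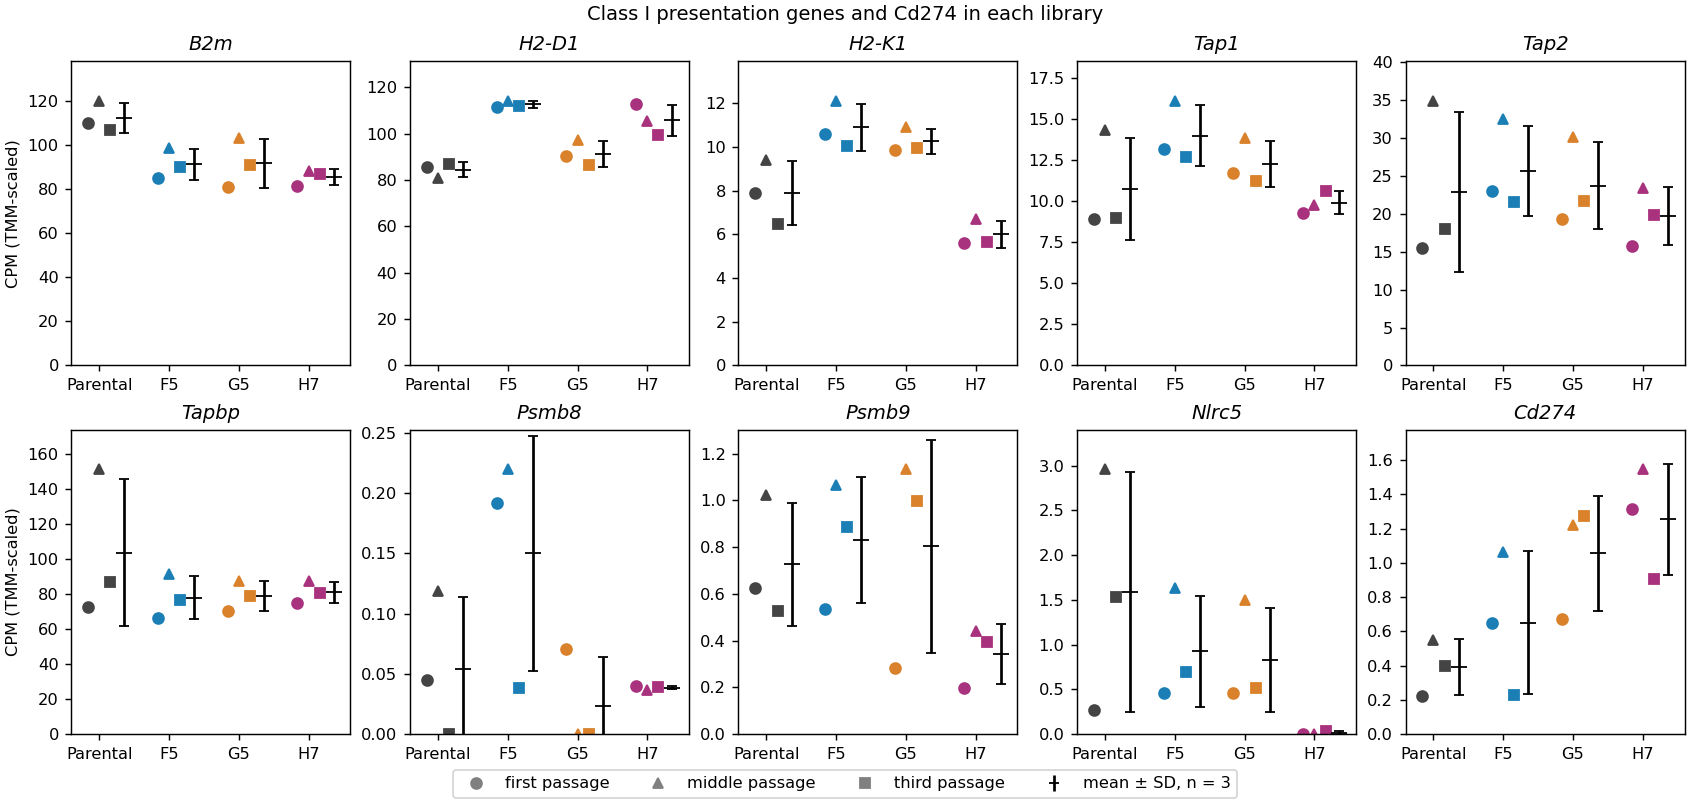
Each panel shows 1 gene, with TMM-scaled CPM from 0 on the vertical axis, the 4 lines on the horizontal axis, 1 symbol per library (circle, triangle and square for the first, the middle and the third passage sampled) and the mean ± SD of 3 libraries beside them. B2m lies lower and H2-D1 of F5 and H7 higher than in the parental libraries, Nlrc5 is at or near 0 in H7, and the triangle is the highest symbol of its line in most panels.

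Each clone was compared with the parental line to ask which of these genes differed where Aebp1 was disrupted. In edgeR's quasi-likelihood test, at an adjusted p under 0.05, F5 had 2 of the 9 tested genes higher (H2-D1 and H2-K1) and 0 lower, where 6.88% of all tested genes were higher and 7.37% lower. G5 had 0 called by edgeR, where 6.54% of all tested genes were higher and 6.56% lower. At an unadjusted p under 0.05 G5 had 3 (B2m, H2-K1 and Cd274), beside 27.8% of all tested genes, and DESeq2 called 1 (B2m). H7 had 2 higher (H2-D1 and Cd274) and 2 lower (B2m and Nlrc5), where the shares of all tested genes were 9.64% and 9.92%. In the mean of the 3 clones 1 was higher (H2-D1) and 2 were lower (B2m and Nlrc5), where the shares were 8.55% and 10.5%. Complete separation of 3 clone libraries from the 3 parental ones was common: 15.0% of tested genes lay wholly above and 15.1% wholly below in F5, 13.9% and 14.2% in G5, and 16.7% and 17.3% in H7. The 3 comparisons share the same parental libraries. Without the parental library of passage 7 F5 had 3 higher (Tap1 added) and 0 lower, beside 7.0% and 6.49% of the genes tested in that fit. G5 then had 1 higher (H2-K1) and 0 lower, beside 6.4% and 5.67%, H7 had 2 higher and 2 lower, beside 9.62% and 8.92%, and the mean of the clones 2 higher and 1 lower, beside 6.91% and 7.15%. With the first, the middle and the third passage taken as blocks, F5 had 3 higher and 1 lower, beside 13.8% and 15.0%, G5 2 higher (H2-K1 and Cd274) and 1 lower (B2m), beside 13.1% and 13.8%, and H7 2 higher and 4 lower (H2-K1 and Psmb9 added), beside 16.0% and 16.7%.

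The light chain stood lower in every clone. B2m (chr2:122147686-122153083) measured 109.9, 120.2 and 107 CPM in the parental libraries of passages 6, 7 and 8. At passages 7, 8 and 9 it measured 85.0, 98.8 and 90.0 CPM in F5, 81.1, 103 and 91.0 in G5, and 81.6, 88.2 and 87.1 in H7. All 9 clone libraries lay below all 3 parental ones, as 5.16% of tested genes did. B2m fell by 0.39 on the log2 scale in H7 (SE 0.09, adjusted p = 0.0131) and by 0.33 in the mean of the clones (SE 0.07, adjusted p = 0.0114). The log2 differences were -0.30 in F5 (adjusted p = 0.0535) and -0.29 in G5 (adjusted p = 0.0624), which did not pass, while with the order of passages as a block both did (-0.30 each, adjusted p = 0.00358 and 0.00433). Chromosome 2, which holds B2m, had a median of -0.13 in H7, and B2m lay 0.26 below it. The H7 call was lost without H7 passage 7 (adjusted p = 0.0586). Differences between clones lay between -0.01 and 0.10, and none was called. In bulk RNA, fewer cells that express a gene and less of its RNA per cell cannot be told apart.

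H2-D1 (chr17:35262730-35267499), the dominant heavy chain here, went the other way. It measured 85.6, 80.7 and 86.7 CPM in the parental line, 111, 114 and 112 in F5, 90.2, 97.3 and 86.4 in G5, and 113, 105 and 99.3 in H7. F5 and H7 lay wholly above the parental range, and G5 overlapped it. The rise was 0.42 on the log2 scale in F5 (SE 0.07, adjusted p = 0.00246), or 1.33-fold, and 0.33 in H7 (SE 0.07, adjusted p = 0.00629), or 1.25-fold. In G5 the difference was 0.11 (adjusted p = 0.305). Both B2m and H2-D1 changes are small: neither was called when a 1.2-fold change was required.

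H2-K1 (chr17:33996017-34000347), the other classical heavy chain, separated H7 from the other clones. It measured 7.87, 9.39 and 6.46 CPM in the parental line, 10.6, 12.1 and 10.0 in F5, 9.86, 10.9 and 9.96 in G5, and 5.61, 6.70 and 5.66 in H7. Every F5 and G5 library lay above every parental library, while H7 reached into the parental range from below. The difference from the parental line was 0.46 in F5 (SE 0.14), with an adjusted p of 0.04999 just under the threshold, and that call was lost in 18 of 23 alternative analyses, where its adjusted p reached 0.252. It was 0.37 in G5 (adjusted p = 0.111) and -0.40 in H7 (adjusted p = 0.0751), and both passed with the order of passages as a block (0.38 and -0.39, adjusted p = 0.0133 and 0.0106). Between clones the gap was firmer: H2-K1 was 1.82-fold higher in F5 than in H7 (log2 0.86, SE 0.14, adjusted p = 0.00182) and 1.71-fold higher in G5 than in H7 (log2 0.77, SE 0.14, adjusted p = 0.00341), and each was kept in 21 of 22 alternatives. All 3 libraries of F5 lay above all 3 of H7, as for 20.3% of tested genes, and all 3 of G5 likewise, as for 18.8%. Between F5 and H7, and between G5 and H7, 2 of the 9 genes were called (H2-K1 and Nlrc5), beside 17.9% and 17.4% of tested genes. Between F5 and G5 edgeR called 0, beside 0.258%. At an unadjusted p under 0.05 there was 1 (H2-D1), beside 4.99% of tested genes, and DESeq2 called H2-D1 as well.

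The ratio of the heavy chains set H7 apart as well. As a share of H2-D1 TPM, H2-K1 TPM stood at 11.3%, 14.4% and 9.03% in the parental libraries. The 6 libraries of F5 and G5 held 11.2% to 14.3%. H7 held 6.12%, 7.76% and 6.96%, below all 9 other libraries. Reads of near-identical heavy chains may be split or pooled between genes, and NIH3T3 does not come from the C57BL/6J strain of the reference genome, so the alleles of these polymorphic genes differ from the reference to an unknown extent. How this bears on the heavy-chain values was not tested.

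**Figure D3:**
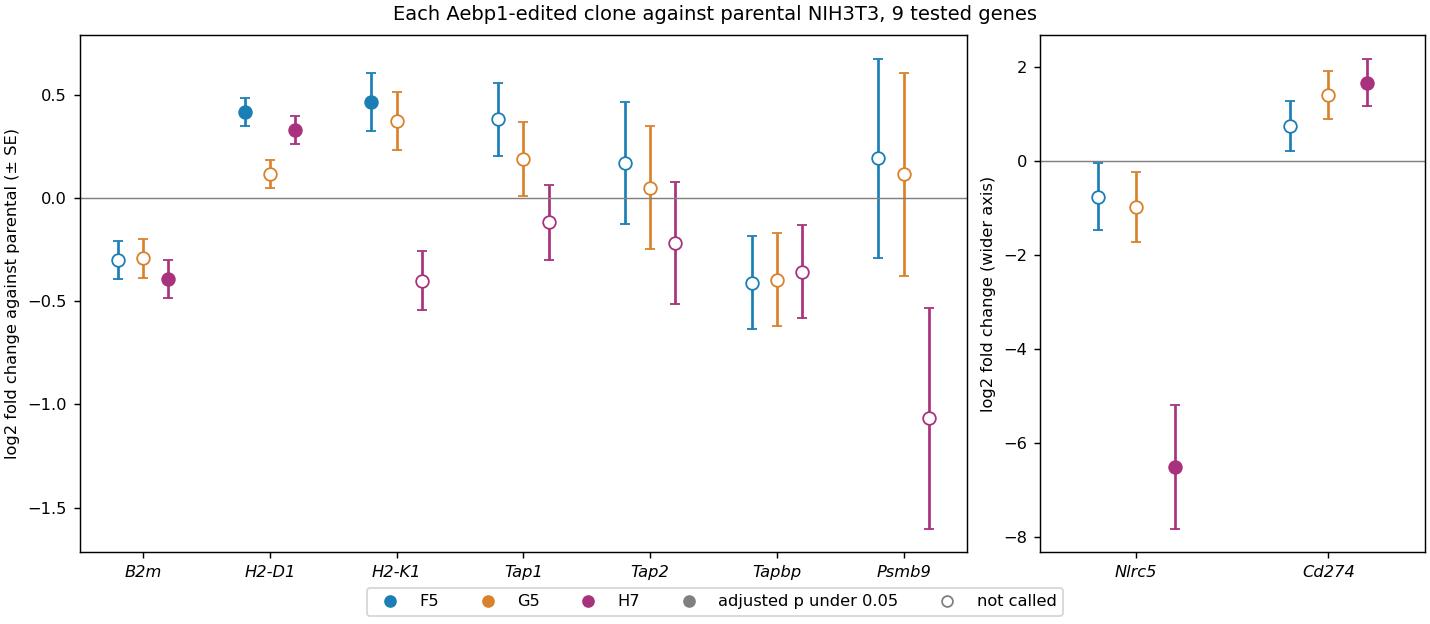
Log2 fold change against the parental line with its SE (vertical axes, the right one wider) for the 9 tested genes in F5, G5 and H7, with filled symbols where the adjusted p was under 0.05. H2-D1 lies above 0 and B2m below 0 in each clone, H2-K1 is above 0 in F5 and G5 and below 0 in H7, and Nlrc5 in H7 lies at -6.50.

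Over all 12 libraries the peptide transporter and tapasin gave no call in any clone. Tap1 (chr17:34187553-34197225) measured 8.94, 14.3 and 9.00 CPM in the parental line, 13.2, 16.1 and 12.7 in F5, 11.7, 13.9 and 11.2 in G5, and 9.31, 9.79 and 10.7 in H7. For Tap1 the log2 difference was 0.38 for F5, 0.19 for G5 and -0.12 for H7. Parental passages 6 and 8 lay below every clone library. The parental library of passage 7 lay within the F5 range and above every G5 and H7 library. Without that library Tap1 gave 0.64 in F5 (adjusted p = 0.00981, called), 0.45 in G5 and 0.14 in H7, so the sign in H7 turned, and with the order of passages as a block F5 was called as well (0.39, adjusted p = 0.0389). Tap2 (chr17:34203527-34216321) ranged from 15.6 to 34.9 CPM in the parental line, which spans all clone values, and its differences ran from -0.22 in H7 to 0.17 in F5. Without the parental library of passage 7 they were 0.61 in F5, 0.49 in G5 and 0.23 in H7, with no call, and the sign in H7 turned here too. Tapbp (chr17:33915899-33929292) had parental values of 72.8, 151 and 87.2 CPM against 66.4 to 91.2 over the 9 clone libraries. Its log2 differences lay between -0.41 and -0.36 (SE 0.23 each, smallest adjusted p = 0.259), and without the high parental library of passage 7 they were -0.03, -0.02 and 0.02 in the order F5, G5, H7. The mean of the clones was called with the order of passages as a block (-0.34, adjusted p = 0.0320). Without the high parental library that mean gave -0.01 (adjusted p = 0.962). The Tapbp model overlaps that of Zbtb22 on the same strand by 3422 bases, and whether counting used strand is not stated.

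The inducible proteasome subunits were rare. Psmb9 (chr17:34181987-34187764), which overlaps the Tap1 model by 212 bases on the opposite strand, measured 0.626, 1.03 and 0.527 CPM in the parental line and 0.199, 0.442 and 0.393 in H7, without overlap. Its difference in H7 was -1.07 (SE 0.53, adjusted p = 0.197), which passed with the order of passages as a block (-1.09, adjusted p = 0.0453), and F5 and G5 ranged from 0.283 to 1.13 CPM across the parental values. Psmb8 (chr17:34197721-34201454) gave 4 counts over the 3 parental libraries, against 13 for F5, 2 for G5 and 3 for H7. The corresponding levels were 0.0568 CPM (95% exact Poisson interval 0.0155 to 0.145), 0.155 (0.0825 to 0.265), 0.0265 (0.00321 to 0.0957) and 0.0386 (0.00796 to 0.113), intervals that cover counting error only. A difference in Psmb8 between a clone and the parental line was not detectable at this depth.

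Nlrc5, the transactivator, was close to absent in H7. Nlrc5 (chr8:94434356-94527272) measured 0.268, 2.96 and 1.54 CPM in the parental line, 0.459, 1.63 and 0.694 in F5, 0.459, 1.496 and 0.518 in G5, and 0, 0 and 0.0393 in H7. The summed counts were 116, 82, 59 and 1. H7 therefore held 1 count where the parental line held 116, a level 128-fold lower by counts (95% counting interval 22.5 to 5096), and 75.9-fold lower than in F5 (13.3 to 3035). The H7 libraries lay below all others, and F5 and G5 overlapped the parental line.

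In the fit, Nlrc5 in H7 fell by 6.50 on the log2 scale (SE 1.32, adjusted p = 0.00572), a value that depends on the prior count since H7 is near 0. F5 exceeded H7 (adjusted p = 0.0144), as did G5 (adjusted p = 0.0203), calls lost without any 1 of the H7 libraries (adjusted p of 0.0512 to 0.0582 and 0.0628 to 0.0751) and for G5 also without its passage 8, while F5 and G5 differed from the parental line by -0.76 and -0.98 (adjusted p = 0.536 and 0.436), or by 0.06 and -0.16 without the parental library of passage 7. The mean of the clones gave -2.75 (adjusted p = 0.0214), and without the parental library of passage 7 that call was lost (-1.93, adjusted p = 0.134). The H7 call remained without that library (-5.68, adjusted p = 0.0140).

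No tested neighbour within 200 kb of Nlrc5 was called lower in H7. Of 10 other tested genes within 200 kb, 1 was higher in H7 (Herpud1, an endoplasmic-reticulum stress gene, by 0.62, adjusted p = 1.44e-04) and 0 were lower, with a median of -0.09. Herpud1 differed by 0.57 in F5 and 0.55 in G5. Within 2000 kb on either side, 47 other tested genes had a median of 0.0017 and ranged from -1.52 to 3.56, and 11 were called. Of all tested genes, 9.64% were called higher in H7 and 9.92% lower. The noncoding 9330175E14Rik, which overlaps the Nlrc5 start on the opposite strand, was read 17 times in the parental libraries, 13 times in the F5 libraries, 11 times in G5 and 0 times in H7, too few to pass the filter.

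**Figure D4:**
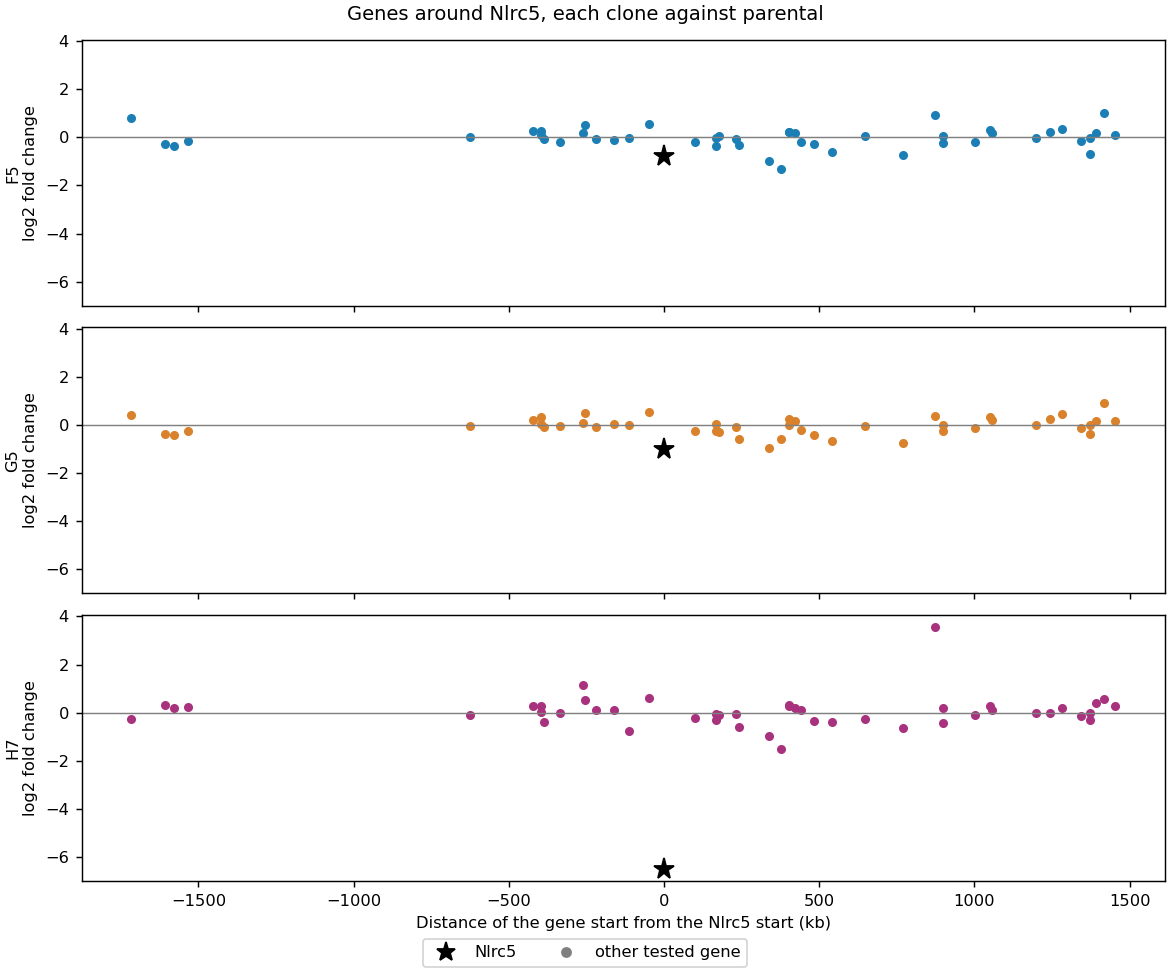
Log2 fold change against the parental line (vertical axis) of tested genes by the distance of their start from that of Nlrc5 in kb (horizontal axis), 1 panel per clone, with Nlrc5 as a star. In H7 the star lies at -6.50, below the other genes, which range from -1.52 to 3.56; in F5 and G5 it lies at -0.76 and -0.98.

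PD-L1 transcript was scarce but stood higher in H7. Cd274 (chr19:29367455-29388095) measured 0.224, 0.552 and 0.396 CPM in the parental line, 0.651, 1.07 and 0.231 in F5, 0.671, 1.22 and 1.27 in G5, and 1.31, 1.55 and 0.904 in H7. These levels rest on 28, 57, 78 and 98 counts per line. All G5 and H7 libraries lay above the parental ones, and F5 overlapped them. Cd274 rose 3.16-fold in H7 (log2 1.66, SE 0.51, adjusted p = 0.0404). The differences of 1.40 in G5 (SE 0.51, adjusted p = 0.1004) and 0.74 in F5 (SE 0.53, adjusted p = 0.397) did not pass (with the order of passages as a block G5 did, at 0.0337), and no difference in Cd274 between clones was called (adjusted p of 0.211 or more). The H7 call was lost in 13 of 23 alternatives, with an adjusted p of up to 0.120, while its direction stayed the same in each.

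Around Cd274, none of 4 other tested genes within 200 kb was called in any clone; they include the kinase gene Jak2 and Plgrkt, whose start lies 65 bases from that of Cd274 on the opposite strand. Pdcd1lg2, which encodes the second PD-1 ligand PD-L2, had 0 counts in all 12 libraries. That allows at most 0.0426 CPM in the parental line and 0.0386 CPM in H7, taking 3 counts per line as the limit.

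Libraries of 1 line also differed by passage. Within each line the middle of the 3 passages (7 in the parental line and 8 in the clones) was compared with the passages before and after it, in a fit that held the line fixed. Of the 9 genes, 7 were higher in the middle passage and 0 lower, beside 16.5% of all tested genes higher and 32.1% called in either direction. The fitted rises on the log2 scale were 1.67 for Nlrc5 (SE 0.31, adjusted p = 0.00302), 0.77 for Psmb9 (SE 0.25, adjusted p = 0.0361), 0.64 for Tap2 (SE 0.09, adjusted p = 0.00116) and 0.43 for Tapbp (SE 0.10, adjusted p = 0.00867). Tap1 rose by 0.31 (adjusted p = 0.0267), H2-K1 by 0.25 (adjusted p = 0.0201) and B2m by 0.16 (adjusted p = 0.0172). H2-D1 did not (0.02, adjusted p = 0.796), and Cd274 gave 0.69 (SE 0.29, adjusted p = 0.0966).

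Tap2 shows the pattern plainly: its middle passage reached 34.9 CPM in the parental line against a mean of 16.8 in the outer passages, 32.5 against 22.3 in F5, 30.2 against 20.5 in G5 and 23.4 against 17.8 in H7. The middle library was the highest of its line in all 4 lines for 5 genes (B2m, H2-K1, Tap2, Tapbp and Psmb9), as it was for 13.2% of tested genes. For Nlrc5 it was the highest in 3 lines, at 3.28, 2.83 and 3.06 times the outer mean in the parental line, F5 and G5, with H7 at the floor. The heavy chains differed here as well, since H2-D1 in the middle passage was highest in 2 lines only.

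The count of 7 depended on single libraries. It was 4 without the parental library of passage 7 (beside 12.5% of the genes tested in that fit), 3 without F5 passage 8 and 4 without G5 passage 8. Shares over all genes are not given for the fits without F5 or G5 passage 8, so those counts are not read as a result about the members. Nlrc5, Tap2 and Tapbp kept their calls in all 16 alternatives and Psmb9 lost its call in 12. The Tapbp value was 0.25 without the parental library of passage 7. Aebp1 itself fell by 0.22 in the middle passage (adjusted p = 0.00664), opposite in direction to the 7 genes. Library totals of the middle passages were the highest of their line in the parental line, F5 and H7 and the lowest in G5. What set the middle libraries apart was not tested. Between the third and the first passage edgeR called 0 of the 9 genes, beside 1.12% of tested genes. An unadjusted p under 0.05 was found for 2 (Psmb9 and Nlrc5), beside 16.1% of tested genes.

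**Figure D5:**
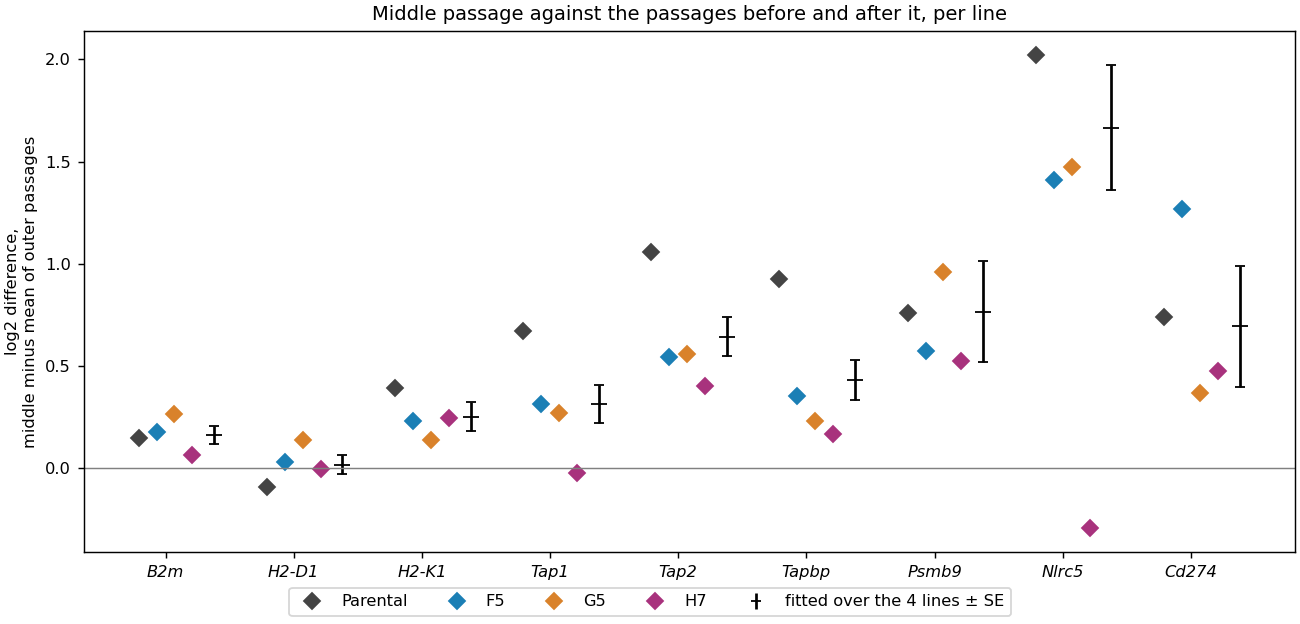
Log2 expression of the middle passage minus the mean of the outer passages (vertical axis) for each line, with the fitted value over the 4 lines ± SE at the right of each gene. All 4 lines lie above 0 for B2m, H2-K1, Tap2, Tapbp, Psmb9 and Cd274, H2-D1 scatters around 0, and Nlrc5 lies above 1.4 in 3 lines and has no signal to vary in H7.

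The wider pathway was read from lists of related genes, again with edgeR over all tested genes, and each of the 12 libraries was left out in turn to see which of these calls stood. Among 11 tested class I heavy chains other than H2-D1 and H2-K1, H2-Q4, which carries all 4 promoter motifs, fell by 1.80 on the log2 scale in H7 (adjusted p = 0.00141). It measured 1.202 ± 0.0898 CPM there against 4.21 ± 1.99 in the parental line (SD, n = 3), and it was also lower in H7 than in F5 (by 1.89) and G5 (by 1.95), calls that no left-out library removed. Hfe, an iron-regulating class I relative, was higher by 1.84 in H7 (adjusted p = 0.00599), which stood throughout. It was higher by 1.41 in F5 (adjusted p = 0.0307), lost without parental passage 6, parental passage 8 or F5 passage 8 (up to 0.117), and by 1.31 in G5 (adjusted p = 0.0456), lost on leaving out any library but parental passage 7, F5 passage 8 or F5 passage 9 (up to 0.129). Cd1d1, which presents lipids, fell by 0.90 in G5 (adjusted p = 0.0258), lost without parental passages 6 or 8 or G5 passages 7 or 8 (up to 0.105). The list's medians were 0.02 in F5, -0.16 in G5 and -0.39 in H7, beside -0.01, -0.01 and -0.02 over all genes, and without the parental library of passage 7 they were 0.31, 0.10 and -0.10.

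Of 12 tested genes for peptide trimming and loading, 2 fell in F5 and 3 in G5, beside 7.37% and 6.56% of all tested genes, and none was called in H7. The medians were -0.09, -0.10 and 0.02. Without the parental library of passage 7 the counts were 6 lower and 1 higher in F5, beside 6.49% and 7.0% of the genes tested in that fit. In G5 they were 5 lower and 2 higher, beside 5.67% and 6.4%, and in H7 again 0. Pdia3, the tapasin partner in the loading complex, fell by 0.46 in F5 and 0.45 in G5 whichever library was left out. Erap1, the aminopeptidase that trims peptides in the endoplasmic reticulum, fell by 0.56 in F5 and 0.52 in G5 (adjusted p = 0.0175 and 0.0259), and stood at 13.98 ± 1.07 CPM in H7 against 13.6 ± 2.23 in the parental line (SD, n = 3). The Erap1 call in F5 was lost without F5 passage 7 (adjusted p = 0.0767), and that in G5 without parental passage 7 (adjusted p = 0.0665), G5 passage 7 or G5 passage 8. H7 exceeded F5 in Erap1 throughout (by 0.61), and exceeded G5 (by 0.57) except without G5 passage 7 (adjusted p = 0.0541). The chaperone gene Calr fell by 0.55 in G5 (adjusted p = 0.0494), lost on leaving out any library but parental passage 7 or H7 passage 7 (up to 0.156).

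Against the parental line edgeR called none of 15 tested genes of the constitutive 20S proteasome in any clone. Their median was 0.07 in each clone, and without the parental library of passage 7 it was -0.08 in F5, -0.09 in G5 and -0.08 in H7. In the middle passage 14 of the 15 were lower (median -0.28, beside 0.02 over all genes), and 11 without the parental library of passage 7 (median -0.20). Over the 12 libraries 32.1% of all tested genes were called in either direction and 16.5% higher. The share lower is not given for the fit without the parental library of passage 7. Its count of 11 is therefore not read as a result about the list. Psmb6 (-0.30) and Psmb7 (-0.29) were lower whichever library was left out, whereas Psmb5 (-0.23) lost its call in 9 of the 12 cases. Of the inducible subunit Psmb10 and the activator genes Psme1 and Psme2, none was called in a clone, and Psme1 rose by 0.23 in the middle passage (adjusted p = 0.0259), lost in 5 of the 12 cases, parental passage 7 among them (adjusted p = 0.0826). Without that library 1 gene of each list was called in H7, Psme2 higher and Psma7 lower.

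Among 8 proteins that join Nlrc5 on class I promoters, the CREB/ATF factor gene Atf1 rose by 0.52 in H7 (adjusted p = 3.35e-04) and the NF-Y subunit gene Nfyb fell by 0.31 (adjusted p = 0.00659). Both also differed between H7 and each other clone, and no left-out library removed these calls. Both lie on chromosomes that moved the same way in H7: the median was 0.45 over 534 tested genes of chromosome 15, which leaves 0.08 for Atf1, and -0.21 over 647 of chromosome 10, which leaves -0.10 for Nfyb. The RFX subunit gene Rfxank fell by 0.40 in F5 and 0.48 in G5 (adjusted p = 0.0472 and 0.0243). Without parental passage 7 both calls were lost (adjusted p = 0.127 and 0.0667), as was that of F5 in 10 other cases and that of G5 without G5 passages 7 or 8.

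Of 11 tested interferon-gamma signalling genes, Socs3, a feedback inhibitor, fell in each clone, by 1.08 in F5, 1.13 in G5 and 0.55 in H7, with a largest adjusted p of 0.0179 on leaving out a library. Irf1, a factor that drives class I genes, fell by 0.59 in G5 (adjusted p = 0.0416), and without parental passage 7 it gave -0.32 (adjusted p = 0.0719); the call stood only without parental passages 6 or 8. In H7 the phosphatase gene Ptpn2 rose by 0.31 (adjusted p = 0.0203), lost without parental passage 8 or H7 passage 8, and the receptor chain gene Ifngr2 by 0.32 (adjusted p = 0.0314), lost without parental passages 7 or 8 or H7 passages 7 or 8. The medians of their chromosomes in H7 were 0.25 and 0.22, which leaves 0.06 for Ptpn2 and 0.11 for Ifngr2.

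Among 17 tested interferon response genes, Usp18, which removes ISG15 and dampens type I signalling, fell by 2.56 in F5, 2.52 in G5 and 2.35 in H7 (adjusted p = 0.0228, 0.0267 and 0.0240). Its parental values of 2.06 to 7.85 CPM lay above all clone values. Without the parental library of passage 7 the differences were -2.03, -1.99 and -1.82 and the calls were lost (adjusted p = 0.0585, 0.0699 and 0.0701). Stat2 fell by 1.07 in H7 (adjusted p = 0.0222) and lost its call likewise (-0.63, adjusted p = 0.0535). With all 12 libraries no gene of the list was called higher in a clone. Without parental passage 7 there were 3 in H7 (Dtx3l, Ifit1 and Gbp2) and 1 in F5 (Tap1). The shares of all genes higher in that fit were 9.62% in H7 and 7.0% in F5.

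In the middle passage 11 of the 17 interferon response genes were higher and 0 lower, beside 16.5% of all tested genes higher. The median of the 17 was 0.88, beside 0.02 over all genes. This list holds Tap1, which is among the 11 and is also counted with the members. Without the parental library of passage 7, 8 of 18 were higher, with a median of 0.48, beside 12.5% of the genes tested in that fit. Stat2 (0.49, or 0.27 without that library), Parp14 (1.56), Ifit1 (1.25) and Usp18 (1.21) were higher whichever library was left out. Of the 11 other class I heavy chains, 7 were higher in the middle passage and 0 lower, and 5 without parental passage 7 (Mr1, Hfe, H2-T23, H2-M3 and Fcgrt). These counts stand beside the same shares of 16.5% and 12.5%.

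Against the parental line, F5 had 1 higher and 1 lower of 13 tested T-cell co-signalling ligands and regulators of PD-L1 stability. The shares of all tested genes were 6.88% and 7.37%. G5 had 2 higher and 0 lower, beside 6.54% and 6.56%, and H7 had 2 higher and 0 lower, beside 9.64% and 9.92%. The mean of the clones had 3 higher and 1 lower, beside 8.55% and 10.5%. In the middle passage 6 of the 13 were higher and 0 lower, beside 16.5% of all tested genes higher. The median was 0.45, beside 0.02 over all genes. Without parental passage 7 the count was again 6 (median 0.34), beside 12.5% of the genes tested in that fit. Lgals3, which encodes galectin-3, rose by 0.78 in F5, 0.69 in G5 and 0.83 in H7 (adjusted p = 0.0123, 0.0230 and 0.00629), of which the G5 call was lost without parental passage 6, G5 passage 8 or G5 passage 9 (up to 0.0867). Cd80, a ligand of CD28 and CTLA-4 that also binds PD-L1 on the same membrane, rose by 2.82 in H7 (3.42 ± 1.52 CPM against 0.476 ± 0.142, SD, n = 3, adjusted p = 0.00191). It was higher there than in F5 and G5, and these calls stood throughout. Cmtm4, which stabilises PD-L1 protein, rose by 0.37 in G5 (adjusted p = 0.00574), which also stood. Vtcn1, which encodes the inhibitory ligand B7-H4, fell by 2.10 in F5 from 41 to 11 counts (adjusted p = 0.0228), lost without parental passage 7 (adjusted p = 0.0653) or any F5 library. Among 4 tested natural-killer ligands Raet1d rose by 0.91 in G5 and H60b fell by 0.81 in H7, and both calls were lost without parental passage 7 (adjusted p = 0.0822 and 0.0546), each among 4 such libraries.

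MHC class II was represented by 3 tested genes, none above 8.06 CPM. Cd74, the invariant chain, went from 2 summed parental counts to 24 for F5, 26 for G5 and 144 for H7, and was called higher in each clone (adjusted p = 0.0281, 0.0187 and 1.93e-04). The H7 call stood whichever library was left out. That of F5 was lost without parental passages 6 or 8 or F5 passages 7 or 9 (up to 0.0843), and that of G5 without parental passage 8 or G5 passage 8 (up to 0.0572). H2-DMa and H2-DMb1 encode the chains of the class II peptide exchanger and gave no call against the parental line over all 12 libraries. Without parental passage 7 H2-DMb1 was called higher in F5 and G5 and H2-DMa higher in H7. H2-DMb1 was lower in H7 than in F5 and G5, by 1.18 and 1.27 (adjusted p = 0.00725 and 0.00489, kept throughout). For H2-DMa the differences from H7 were -1.43 in F5 and -1.51 in G5 (adjusted p = 0.0222 and 0.0184), each lost in 4 of the 12 cases. The class II chain H2-Aa had 0 counts in all libraries. Markers of other cells moved along with the clones at very low counts: the epithelial marker Cdh1 had 57 counts in H7 against 1 in the parental line, and the leukocyte marker Ptprc had 1 count in G5 against 31. Of the fibroblast markers Col3a1 fell by 1.504 in F5 and 1.78 in G5, or by 1.00 and 1.28 without parental passage 7. Col1a1 fell by 0.65 in G5, and its fall of 0.52 in F5 was lost without parental passages 6, 7 or 8 or F5 passages 8 or 9. S100a4 rose by 0.49 in H7, lost without H7 passage 9 (adjusted p = 0.0585). Their part in the values of the class I genes was not tested.

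The genes whose pattern over the 12 libraries was most like a given member were found by Pearson's r of log2 CPM among 14703 others, as a description in which libraries share lines and passages. For B2m they were Vsig10l (0.972), Stx6 (0.959) and Pcdhb6 (0.958). Nlrc5 was most like Tbx4 (0.963), Gsdmd (0.958) and D10Jhu81e (0.957), and Cd274 was most like Lims1 (0.905), Zbtb21 (0.888) and Sema4d (0.883). Among the members themselves the nearest pair was Tap1 and Tap2 (0.869), whose genes lie 6302 bases apart on the same strand with Psmb8 between them, followed by Tap1 and H2-K1 (0.820). Nlrc5 correlated with Psmb9 at 0.740, with H2-K1 at 0.694 and with B2m at 0.667, and with H2-D1 at -0.37, while B2m and H2-D1 stood at -0.60. Among the 14703 others, Psmb9 ranked 915, H2-K1 1241 and B2m 1427 by likeness to Nlrc5. With each line's mean removed, Nlrc5 stood at 0.519 with Psmb9, 0.363 with H2-K1, 0.666 with B2m and 0.0098 with H2-D1. With line means removed B2m and H2-D1 stood at 0.077, Tap1 and Tap2 at 0.924, and Tap1 and H2-K1 at 0.771. The nearest pair of members was then Tap2 and Tapbp (0.934).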

How the data were processed

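The authors deposited estimated counts and TPM values for 48795 Ensembl genes; every column of deposited TPM sums to 1000000. Build GRCm38 is named in the submitters' processing notes; the aligner, counting tool, annotation release and use of strand were not given in the sources used here. Per the labels' protocols, the libraries are stranded, ribosome-depleted total RNA. Identifiers were matched to GENCODE M21. Counts were rounded, filtered with filterByExpr, TMM-scaled and tested with edgeR's quasi-likelihood F-test, with Benjamini-Hochberg adjustment over 14704 genes, 12 libraries in 1 fit and 8 residual degrees of freedom; the passage fit added the place in the order of passages, with 6. CPM use the TMM factors. The biological coefficient of variation was 15.5%. In counts simulated for F5, 23 of 67 genes changed 1.5-fold, 49 of 67 changed 2-fold and 60 of 66 changed 4-fold were recovered, with 7 false calls. Genes named are all 10 members, up to 4 per list by smallest adjusted p, fixed comparators, the 3 genes most alike to a member and near neighbours; the other genes named, Herpud1 and 9330175E14Rik included, were chosen after their values were seen. The members and lists were chosen with earlier results of these data known. Tools were DESeq2 1.42.0, limma 3.58.1 and edgeR 4.0.16 under R 4.3.3, with tables made in Python 3.11.15.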

Additional observations from a re-analysis of the deposited data

Results flagged for a closer look

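Clones under the same contrast differed by a test of the difference itself for H2-K1 and Nlrc5. H2-K1 was higher in F5 than in H7 by 0.8633 on the log2 scale (1.82-fold, SE 0.14) and higher in G5 than in H7 by 0.7726 (SE 0.14), with all 3 libraries of each above all 3 of H7. Nlrc5 was higher in F5 than in H7 by 5.7378 (SE 1.38) and in G5 by 5.5180 (SE 1.42), where H7 held 1 count in all; these 2 calls were lost without any 1 of the H7 libraries (adjusted p of 0.0512 to 0.0582 for F5 and 0.0628 to 0.0751 for G5), and for G5 also without its passage 8 (adjusted p = 0.0630). Beside these, 17.9% of tested genes differed between F5 and H7 and 17.4% between G5 and H7. Between F5 and G5 edgeR called 0 of the 9 genes, beside 0.258% of tested genes. An unadjusted p under 0.05 was found for 1 (H2-D1), beside 4.99% of tested genes, and DESeq2 called H2-D1.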

How the results depend on the processing

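No call changed direction under the alternatives run, and counts of called genes moved as follows. Shares over all tested genes are not given beside these counts, which describe the processing only. In F5, 2 higher became 1 with no filter, with limma on log2(TPM + 1) or log2(TPM + 0.1), with the passage number as a replicate block and with the compared groups alone, and 0 with passages 7 and 8 only or a fold threshold of 1.2. They became 3, with Tap1 added, with the first, the middle and the third passage taken as blocks (the order block). Leaving out libraries gave 1 to 3. F5 lower went from 0 to 1 with DESeq2's test and with the order block (leave-one-out 0 to 1). In G5, 0 higher became 2 with the order block (leave-one-out 0 to 1), and 0 lower became 1 with DESeq2's test and the order block (leave-one-out 0 to 1). In H7, 2 higher became 1 with either TPM fit and the replicate block and 0 with passages 7 and 8 or the fold threshold (leave-one-out 1 to 2). Also in H7, 2 lower became 1 with log2(TPM + 1), passages 7 and 8 and the fold threshold. They became 1 as well with the compared groups alone, where Nlrc5 was not among the genes tested. With the order block they became 4, with H2-K1 and Psmb9 added (leave-one-out 1 to 3). In the clone mean, 1 higher became 2 with DESeq2's test and the order block and 0 with passages 7 and 8, the fold threshold, the compared groups alone and counts summed per line (leave-one-out 1 to 2). In the same mean, 2 lower became 1 with either TPM fit, the fold threshold and the compared groups alone and 0 with passages 7 and 8 and summed counts (leave-one-out 1 to 3). They became 3 with the order block, which added Tapbp. F5 against G5 went from 0 to 1 with DESeq2's test. F5 against H7 went from 2 to 1 with log2(TPM + 1), 5 with the order block and 0 with passages 7 and 8 (leave-one-out 1 to 3), and G5 against H7 from 2 to 1, 4 and 0 (leave-one-out 1 to 3). With DESeq2's test each of these became 3, with Tap1 added in F5 against H7 and H2-D1 in G5 against H7. On leaving out libraries the middle-passage count of 7 became 3 to 7, and the third-passage count of 0 became 0 to 1. Same-numbered passages had deviations with a median correlation of 0.153 (range -0.53 to 0.501, 15 pairs), against -0.0423 for different numbers (39 pairs). Among the clones the same number is also the same place in the order, so number and place overlap. Libraries at the same place in the order of passages had a median of 0.342 (range 0.0447 to 0.503, 18 pairs), against -0.11 for different places. Where a library is left out, its group keeps 2. Genes with a mean under 1 TPM over the 12 libraries (Psmb8, Psmb9, Nlrc5 and Cd274) are limited by depth.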
